A study of Mus musculus with 16 samples.

Results

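Tpt1 and 9 other genes that serve protein synthesis or the nucleolus and chromatin around it were followed from crypt to villus and between WT and ROBO mouse intestine. All 10 genes, of 24421 in the count matrices, were present in both matrices. The genes were the translation elongation factors Eef1a1, Eef1b2, Eef1g and Eef2, the initiation helicase Eif4a1, the poly(A)-binding protein Pabpc1, the nucleolar proteins Npm1 and Ncl, the histone chaperone Nap1l1, and Tpt1 itself. They were selected on measured values of these cells, namely the higher level of Tpt1 in ROBO cells, so every difference given here is a description of the cells measured and carries no test.

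The samples were crypt isolates from the small intestine of outbred mice at postnatal day 16, untreated and carried through droplet single-cell RNA sequencing with a 3′ kit that counts unique molecular identifiers (UMIs). WT mice are given only as wild-type. ROBO (RSPO3 Crainbow) mice carried an inert fluorogen-activating protein at position 0 and RSPO3, PTPRKe1:RSPO3e2-5 or PTPRKe1-7:RSPO3e2-5 at the 3 further positions, each with its own fluorescent protein, recombined in the intestinal epithelium by a Villin promoter-driven Cre. RSPO3 is a secreted agonist of Wnt signalling, and neither matrix states which position a cell had recombined. The labels list 8 WT and 8 ROBO samples, but the cells carry only their genotype, so each genotype was 1 pooled sample here and all intervals cover counting error only, not differences between mice.

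There were 1348 WT cells with 2682127 UMIs in all, and 1249 ROBO cells with 2428435. The median depth of a cell was 1492 UMIs in WT and 1610 in ROBO. Cells were clustered anew and clusters were named from marker genes, so the names need not be those of the study. Of 14 clusters, 12 were named: 2 were stem cell-like, 2 transiently amplifying-like, 2 middle enterocyte-like, and 1 each bottom enterocyte-like, top enterocyte-like, secretory-like, enteroendocrine-like, immune-like and fibroblast-like. The 2 unnamed clusters were led by Cxcl10 and Fosb and by Myl7 and Sult1a1. The 5 epithelial classes from stem cell-like to top enterocyte-like held 1094 WT and 1029 ROBO cells. In these 5 classes the summed level of 24 immune markers lay between 0.147 and 0.331 UMIs per 10000 against 538 in WT and 475 in ROBO immune-like cells, and Ptprc, the pan-leukocyte marker, gave at most 1 UMI per class and genotype.

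Protein synthesis is set by the supply of ribosomes and of the soluble factors that work on them. Elongation factor 1A delivers aminoacyl-tRNA, its exchange complex (Eef1b2, Eef1g and partners) recharges it with GTP, and Eef2 moves the ribosome along the message. Many of these messages begin with a terminal oligopyrimidine (TOP) tract, as do those of the ribosomal proteins, which places their translation under mTOR. Tpt1, the translationally controlled tumour protein, is a small abundant cytosolic protein named for this control. In the intestine, proliferating crypt cells are rich in this machinery, whereas enterocytes on the villus are spent on absorption and are shed at the tip.

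The stretch that carries such a tract was read from the transcripts of GENCODE release M21 (GRCm38), because 8 of the members (all but Eif4a1 and Ncl) were on the list of TOP messages used here. Within the first 60 bases of a protein-coding transcript, a C followed by 5 or more letters that are each C or T was found in 7 of the 10 members (70.0%) and in 58.0% of 21877 genes with protein-coding transcripts, so a run of this length was not particular to the members. No such run was found for Eif4a1, Npm1 or Ncl. The lines below show, in the sense of the transcript and with the first such run in capitals, up to 30 bases of the 5′ UTR of Tpt1, Eef1a1 and Pabpc1, chosen because their ROBO to WT differences are described below. They lie at chr14:75845322-75845351 on the plus strand (Tpt1), chr9:78481650-78481679 on the minus strand (Eef1a1) and chr15:36608944-36608973 on the minus strand (Pabpc1). The annotated start of a transcript need not be the start used in these cells.
Tpt1: cgcgtcggCCTTTTCCgcccgctcccccct
Eef1a1: tggacgttCTTTTTCgcaacgggtttgccg
Pabpc1: CCCCTTCTCCCCggcggttagtgctgagag
The genes encode proteins of very different length, from 171 residues for Tpt1 and 224 for Eef1b2 to 857 for Eef2. Since a 3′ kit counts 1 UMI per captured molecule whatever its length, levels below are UMIs per 10000 UMIs of all genes and are not divided by length.

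The first comparison asked how the members are distributed from crypt to villus. All 10 members were at their lowest in top enterocyte-like cells among the 5 epithelial classes, in both genotypes. Eef1a1, the most abundant member, stood in WT cells at 61.4 UMIs per 10000 (95% Poisson interval 59.2 to 63.7) in stem cell-like cells. It was at 53.7 in transiently amplifying-like cells. Among enterocyte-like cells it was at 46.4 in the bottom, 36.2 in the middle and 14.8 (12.8 to 17.0) in the top class. The ROBO values of Eef1a1 had the same order, from 66.7 in stem cell-like to 16.6 in top enterocyte-like cells. The stem cell-like class joined 2 clusters of unlike depth and level. The one led by Lgr5 and BC064078 (305 cells, median 1642 UMIs) had WT Eef1a1 at 68.0. The one led by Zfp692 and Erdr1 (378 cells, median 845 UMIs) had it at 50.4, below the 53.7 of transiently amplifying-like cells. WT Tpt1 was at 36.6 and 23.7 and WT Pabpc1 at 27.9 and 18.6 in turn. Stem cell-like values below are for both clusters together unless 1 is named.

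**Figure D1:**
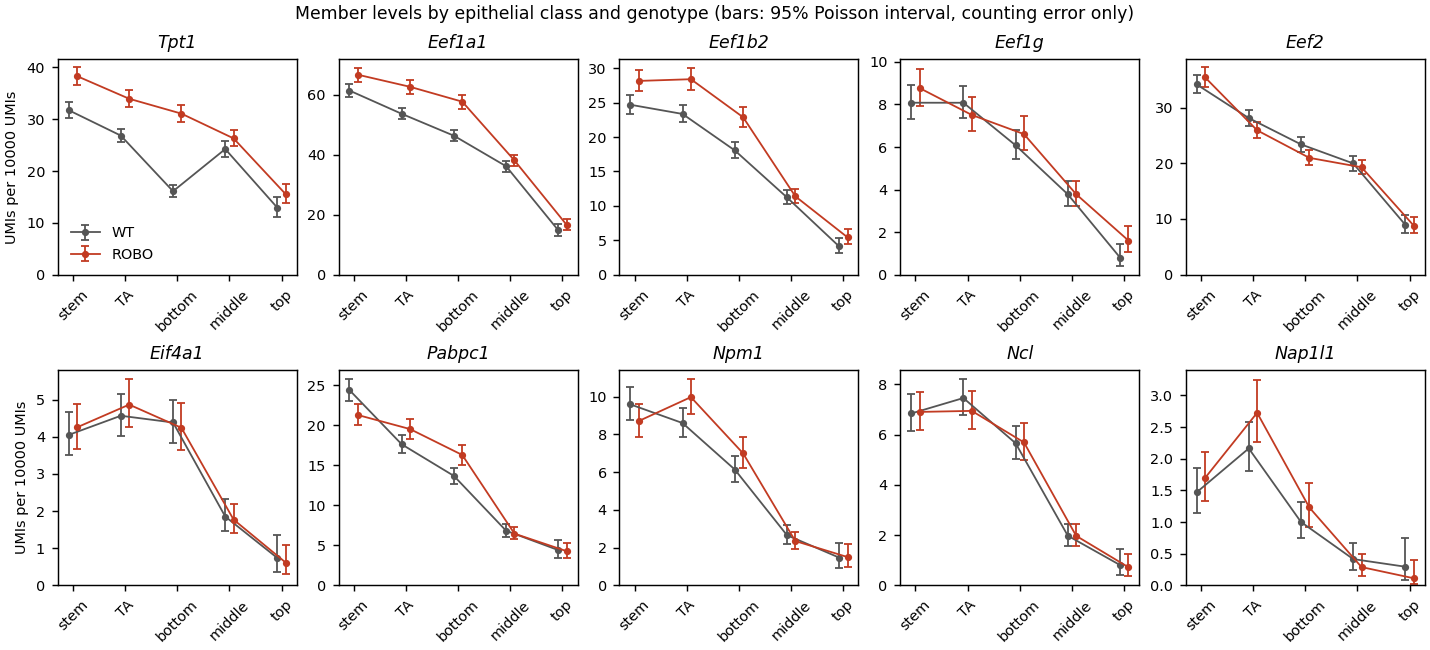
UMIs per 10000 UMIs (vertical axis, from 0) of the 10 members in the 5 epithelial classes (horizontal axis; TA, transiently amplifying-like), in WT (grey) and ROBO (red) cells, with 95% Poisson intervals for counting error. All members are lowest in the top class. Tpt1 has a dip in WT bottom enterocyte-like cells, at 16.1, that ROBO cells, at 31.1, do not have.

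Ncl and Eef1g had the largest WT differences of the 9 members with 100 or more UMIs. Ncl, nucleolin, an RNA-binding protein of the nucleolus, was counted 331 times in WT stem cell-like cells and 11 times in WT top enterocyte-like cells, 6.84 against 0.806 UMIs per 10000, a log2 ratio of 3.09 (95% exact interval 2.23 to 4.10). In ROBO cells its log2 ratio was 3.26 (2.47 to 4.19). Npm1, nucleophosmin, had log2 ratios of 2.71 in WT and 2.54 in ROBO cells. Eef1g, the scaffold subunit of the exchange complex, had 3.33 (2.47 to 4.34) in WT and 2.45 (1.90 to 3.05) in ROBO cells, and its 2 intervals overlapped. Eef1b2 had 2.59 and 2.37, Pabpc1, which coats the poly(A) tail, 2.47 and 2.32, and Eif4a1, the helicase that unwinds 5′ leaders, 2.47 and 2.80, in WT and ROBO cells in turn. The top enterocyte-like level of Eif4a1 rested on 10 and 11 UMIs.

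Tpt1 had the shallowest difference of the 9 members with at least 100 UMIs in both classes together. Its level was 31.8 UMIs per 10000 in WT stem cell-like and 12.9 in WT top enterocyte-like cells, a log2 ratio of 1.30 (1.07 to 1.53), and its ROBO ratio was 1.30 (1.12 to 1.49). Neither interval reached those of Eef1a1, at 2.05 (1.85 to 2.27) in WT and 2.01 (1.83 to 2.18) in ROBO cells. Eef2 was close to Eef1a1, at 1.93 and 2.01. The 86 cytosolic ribosomal protein genes, summed, had log2 ratios of 2.51 and 2.43.

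Nap1l1 was below the minimum of 100 UMIs in this pair of classes, with 71 and 4 UMIs in WT and 78 and 2 UMIs in ROBO cells. Its highest level among the 5 classes from stem cell-like to top enterocyte-like was in transiently amplifying-like cells, at 2.16 (1.80 to 2.58) UMIs per 10000 in WT and 2.73 (2.27 to 3.25) in ROBO cells, against 1.47 and 1.69 in stem cell-like cells. Eif4a1 was likewise highest of these 5 in transiently amplifying-like cells, at 4.57 and 4.87, but its stem cell-like values of 4.05 and 4.26 lay within counting error of these.

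Of the 9 members with 100 or more UMIs, 9 were at least 1.5-fold higher in stem cell-like than in top enterocyte-like cells in WT, where 56.9% of 1081 genes were. The count was again 9 of 9 in ROBO cells, where 50.5% of 1102 genes were. The median log2 ratio of these members was 2.47 in WT and 2.37 in ROBO cells, beside medians of 0.84 and 0.61 over all genes tested. Among the other genes of the translation lists, 25 of 28 in WT and 21 of 27 in ROBO cells were at least 1.5-fold higher in stem cell-like cells and 0 were that much lower, with medians of 2.08 and 1.57. The classes were formed from these same cells, so these counts describe the classes. Of the 10 members only Nap1l1 was among the 2000 genes used for clustering.

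The number of Tpt1 UMIs per Eef1a1 UMI differed by class. In WT cells it was 0.517 in stem cell-like, 0.50 in transiently amplifying-like, 0.347 in bottom, 0.670 in middle and 0.871 in top enterocyte-like cells. In ROBO cells it was 0.574, 0.542, 0.538, 0.690 and 0.933 in the same order. The bottom enterocyte-like class was thus the only one of these 5 in which the WT ratio lay below 0.5.

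The second view ranked cells without clusters, which served only to choose the cells. The 2389 cells outside the secretory-like, enteroendocrine-like, immune-like and fibroblast-like classes were ranked by the share of their UMIs from 21 villus landmark genes and divided into 5 bins of equal size, and members were counted per 10000 UMIs outside the villus and crypt landmark genes. The first 3 bins spanned shares of 0 to 1.05%, and 462 and 309 cells lay within 1 landmark UMI of the first and second boundaries, so their order is loose. The last bin spanned 8.37 to 48.2%.

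**Figure D2:**
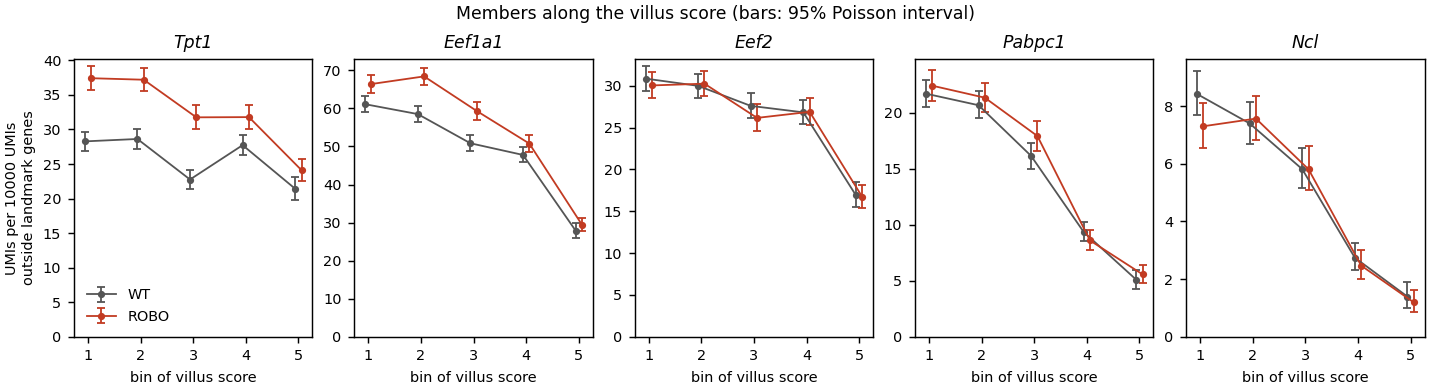
UMIs per 10000 UMIs outside landmark genes (vertical axis, from 0) of Tpt1, Eef1a1, Eef2, Pabpc1 and Ncl in 5 bins of cells ranked by villus score (horizontal axis, 1 lowest), WT grey and ROBO red, with 95% Poisson intervals. Ncl goes from 8.42 to 1.39 in WT cells, whereas Tpt1 goes from 28.3 to 21.4.

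Ncl stood at 8.42, 7.40, 5.81, 2.74 and 1.39 in the successive bins of WT cells. Tpt1 stood at 28.3, 28.6, 22.8, 27.7 and 21.4, with no steady order. The log2 ratio of the first over the last bin was 0.40 (0.27 to 0.54) for Tpt1 in WT and 0.63 (0.52 to 0.75) in ROBO cells. It was larger for each of the other 9 members in both genotypes, from 0.87 and 0.85 for Eef2 to 3.49 and 3.58 for Nap1l1, with 2.60 and 2.62 for Ncl. Eef1b2, Eef1g and Pabpc1 were lower at every step in both genotypes.

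The next comparison asked how far Tpt1 was higher in ROBO cells, and in which. Over all cells it was counted 6778 times in WT, 25.3 UMIs per 10000 (24.7 to 25.9), and 7709 times in ROBO, 31.7 (31.0 to 32.5), a log2 ratio of 0.33 (0.28 to 0.38). This is the difference for which the gene was selected. Over all cells 9.01% of 7458 genes with 100 or more UMIs were at least 25% higher in ROBO cells (a log2 ratio of 0.32), and Tpt1 was 1 member of 10 that was. None of the 10 was lower by 20% or more (a log2 ratio of -0.32 or below), where 8.73% of genes were.

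The largest gap among the epithelial classes lay in bottom enterocyte-like cells, the class led by Gsdmc4 and Dmbt1. There Tpt1 stood at 16.1 UMIs per 10000 (15.0 to 17.2) in 184 WT cells and at 31.1 (29.4 to 32.8) in 150 ROBO cells, a 1.93-fold difference and a log2 ratio of 0.95 (0.82 to 1.08). Tpt1 ranked 14th from the highest of 1972 genes in that class. Its rank was 204 of 1878 in stem cell-like and 302 of 2204 in transiently amplifying-like cells. Among middle and top enterocyte-like cells it was 544 of 1681 and 88 of 407. Tpt1 was chosen for its rise, so these ranks are a description. The bottom class WT level was the second lowest of the 5, below the 24.2 (22.8 to 25.8) of WT middle enterocyte-like cells. Its ROBO level lay between those of ROBO transiently amplifying-like and middle enterocyte-like cells.

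**Figure D3:**
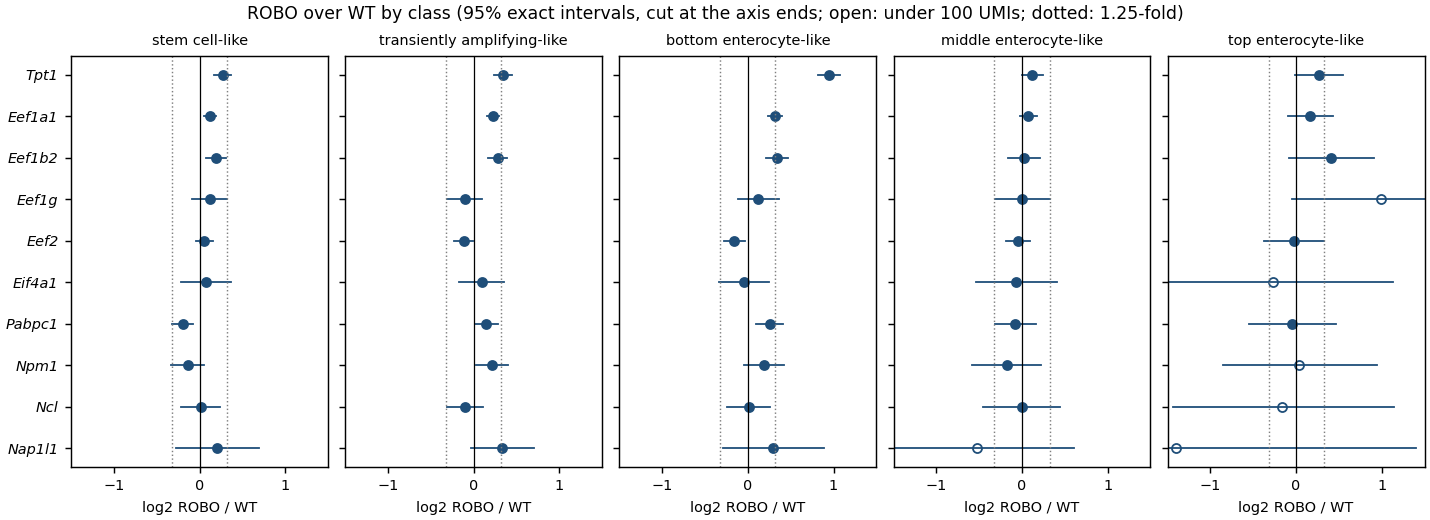
Log2 ratio of ROBO over WT (horizontal axis) for each member (vertical axis) in the 5 epithelial classes, with 95% exact intervals for counting error cut at the axis ends; open circles have under 100 UMIs and dotted lines mark log2 ratios of 0.32 and -0.32. Tpt1 in bottom enterocyte-like cells, at 0.95, is the one filled circle beyond 0.5.

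The gap was present across single cells. To compare cells of unlike depth, each was thinned to 912 UMIs and shallower cells were left out, 23 WT and 0 ROBO cells of this class. After thinning, 68.3% of 161 WT cells (Clopper-Pearson interval 60.5 to 75.4) and 92.7% of 150 ROBO cells (87.3 to 96.3) kept at least 1 Tpt1 UMI. These intervals take the cells of 1 pooled sample per genotype as independent and do not cover differences between mice. Before thinning the shares were 82.6% and 99.3%. The median count was 1 UMI in WT (quartiles 0 and 2) and 2 UMIs in ROBO cells (quartiles 1 and 4). No cell type in these matrices lacks Tpt1 outright: in WT top enterocyte-like cells, where it was lowest, 63.8% of 69 thinned cells had a UMI, so free RNA was not gauged from it. Of the other members in the bottom class, Eef1b2 was found in 74.5% of WT and 80.0% of ROBO thinned cells, Eef2 in 88.2% and 84.7%, and Nap1l1 in 12 of 161 and 18 of 150, each pair with intervals that overlapped.

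**Figure D4:**
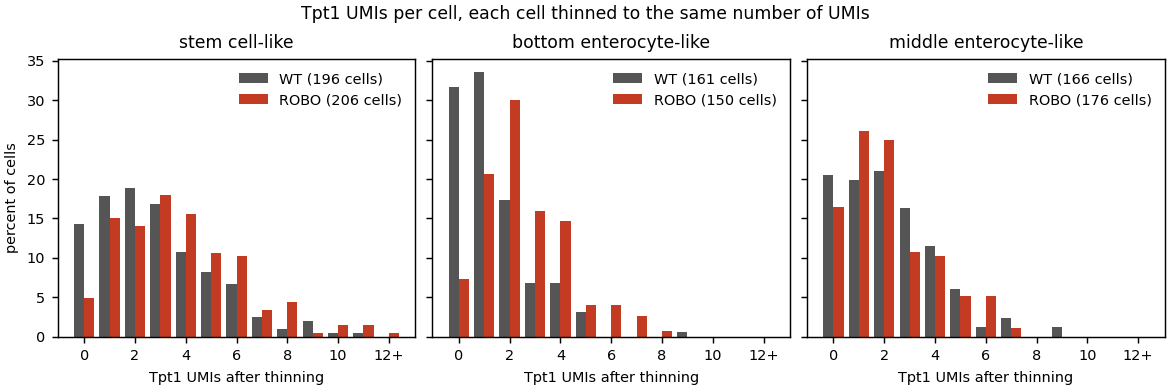
Percent of cells (vertical axis, from 0) by number of Tpt1 UMIs after thinning to 912 UMIs (horizontal axis), WT grey and ROBO red, in stem cell-like, bottom and middle enterocyte-like cells. In the bottom class 31.7% of WT and 7.33% of ROBO cells have no Tpt1 UMI.

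The 5 cells with the most Tpt1 held 10.9% of its WT and 8.61% of its ROBO UMIs in the bottom class, and leaving them out gave a log2 ratio of 1.01. The ROBO cells of this class held none under 1125 UMIs while the WT cells went down to 536. Among cells at or above the class median of 2598 UMIs the ratio was 1.03 (0.88 to 1.17), and below it 0.76 (0.51 to 1.02).

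In the other classes the ratio of Tpt1 was smaller. It was 0.27 (0.17 to 0.37) in stem cell-like cells, from 31.8 to 38.3 UMIs per 10000, and 0.34 (0.24 to 0.44) in transiently amplifying-like cells, from 26.8 to 34.0, where it ranged from 0.091 to 0.58 when the classes were drawn otherwise. In middle enterocyte-like cells, at 24.2 and 26.3, it was 0.12 (-0.01 to 0.24), and in top enterocyte-like cells, at 12.9 and 15.5, it was 0.27 (-0.01 to 0.55); both of these intervals included 0. The 2 middle enterocyte-like clusters differed from each other: the ratio was 0.56 (0.33 to 0.80) in the one led by Sis and Gsta1 and -0.06 (-0.20 to 0.09) in the one led by Cubn and Gm2061. The unnamed cluster led by Myl7 and Sult1a1, of 70 WT and 62 ROBO cells, had a ratio of 0.01 (-0.14 to 0.15). Its levels were high, at 39.2 and 39.4. Reg3g and Reg3b were also among its leading genes, and the paper describes Reg3b as a marker of enterocytes next to the crypt. These cells were not counted in the bottom enterocyte-like class, and they did not share the larger ratio of that class. The other unnamed cluster, led by Cxcl10 and Fosb, had 0.18 (-0.08 to 0.43).

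Tpt1 was also higher in ROBO cells outside the absorptive lineage. Its level was 22.01 and 30.8 UMIs per 10000 in WT and ROBO secretory-like cells, a log2 ratio of 0.48 (0.26 to 0.71). In enteroendocrine-like cells it was 24.5 and 44.4, a ratio of 0.86 (0.37 to 1.35) from 15 and 14 cells. In immune-like cells, which the Villin promoter does not drive, it was 29.5 and 39.2, a ratio of 0.41 (0.07 to 0.75) from 25 and 19 cells. Of genes with 100 or more UMIs, 17.5% of 332, 28% of 25 and 19.6% of 97 were at least 25% higher in these classes in turn. From the highest, Tpt1 ranked 31, 3 and 14 among them. The interval of the immune-like ratio overlapped those of stem cell-like and transiently amplifying-like cells, and whether the immune-like difference belongs to the mice, the libraries or the transgene cannot be told apart with 1 pooled sample per genotype.

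With cells binned by villus score in place of class, the ROBO over WT ratio of Tpt1 was 0.40 (0.31 to 0.50), 0.38 (0.28 to 0.48) and 0.48 (0.36 to 0.60) in the first 3 bins. It was 0.20 (0.09 to 0.31) and 0.17 (0.02 to 0.32) in the last 2. No bin came near the 0.95 of the bottom enterocyte-like class, which made up 30.8% of the cells in the third bin.

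The last comparison asked whether the other members shared the difference. Eef1a1 and Eef1b2, a factor and a subunit of its exchange complex, had smaller ratios than Tpt1 in bottom enterocyte-like cells, with intervals above 0. Eef1b2 stood in bottom enterocyte-like cells at 18.1 UMIs per 10000 for WT against 22.9 for ROBO, which gave a log2 ratio of 0.34 (0.21 to 0.47). In transiently amplifying-like cells its ratio was 0.28 (0.17 to 0.39), in stem cell-like cells 0.19 (0.07 to 0.30), and in secretory-like cells 0.51 (0.24 to 0.79). Eef1a1 stood at 46.4 and 57.7 in bottom enterocyte-like cells, a ratio of 0.32 (0.23 to 0.40), just under 25% (0.32), with 0.22 (0.15 to 0.30) in transiently amplifying-like and 0.12 (0.05 to 0.19) in the stem cell-like class. In middle enterocyte-like cells the intervals of both genes included 0. Below the median depth of that class Eef1a1 had 0.49 (0.26 to 0.73), against -0.04 (-0.15 to 0.07) at or above it. Eef1b2 had -0.12 (-0.56 to 0.31) and 0.04 (-0.17 to 0.24) in turn. Eef1b2 differed between the 2 middle clusters as Tpt1 did, at 0.54 (0.19 to 0.89) in the one led by Sis and Gsta1. Its ratio was -0.19 (-0.41 to 0.03) in the one led by Cubn and Gm2061. Eef1a1 had 0.09 (-0.11 to 0.30) and 0.08 (-0.04 to 0.20) in turn. In the bottom class the interval of Tpt1 lay wholly above those of the other 9 members but for Nap1l1, whose 52 and 51 UMIs gave 0.30 (-0.29 to 0.88).

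Eef1g and Eef2, the remaining members of the elongation machinery, had no interval wholly above 0 in stem cell-like, transiently amplifying-like or bottom enterocyte-like cells. Eef1g, which binds Eef1b2 in the same complex, had ratios of 0.12 (-0.12 to 0.36) in bottom enterocyte-like, -0.11 (-0.31 to 0.10) in transiently amplifying-like and 0.12 (-0.09 to 0.32) in stem cell-like cells. Its bottom enterocyte-like and stem cell-like intervals overlapped those of Eef1a1 and Eef1b2, and its transiently amplifying-like interval did not. Eef2, the translocase, stood at 23.4 UMIs per 10000 in WT and 20.98 in ROBO bottom enterocyte-like cells, a ratio of -0.16 (-0.28 to -0.03), and at 28.1 and 25.9 in transiently amplifying-like cells, a ratio of -0.12 (-0.23 to -0.01). Eef2 thus lay on the other side of 0 from Eef1a1 in the sums of these 2 classes. The 2 transiently amplifying-like clusters differed for Eef2, at -0.21 (-0.34 to -0.09) in the one led by Sfrp5 and X2810417H13Rik. It was 0.27 (0.03 to 0.50) in the one led by Kif23 and Mcm5, where Eef1a1 had 0.29 (0.10 to 0.48). Below the class median depth Eef2 had 0.08 (-0.14 to 0.30) in transiently amplifying-like and -0.01 (-0.24 to 0.21) in bottom enterocyte-like cells. At or above it the ratios were -0.18 and -0.25.

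Pabpc1 differed in sign between the sums of the classes. It was lower in ROBO stem cell-like cells, at 24.4 against 21.3 UMIs per 10000, with a log2 ratio of -0.20 (-0.32 to -0.07). It was higher in transiently amplifying-like cells, at 0.15 (0.02 to 0.28), and in bottom enterocyte-like cells, at 0.25 (0.10 to 0.41), where the levels were 13.7 and 16.3. None of these class ratios reached the limits of 25% higher or 20% lower. Below the class median depth they were -0.08 (-0.35 to 0.19), -0.08 (-0.39 to 0.22) and 0.05 (-0.25 to 0.35) in turn, all with intervals that included 0. At or above it the ratios were -0.25, 0.22 and 0.33. The 2 stem cell-like clusters differed, at -0.24 (-0.39 to -0.09) in the one led by Lgr5 and BC064078. In the one led by Zfp692 and Erdr1 the ratio was -0.03 (-0.26 to 0.19). Eif4a1 had intervals that included 0 in all 5 epithelial classes, with ratios between -0.27 and 0.09.

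Of the nucleolar members, Ncl had ratios of 0.01 in stem cell-like, -0.10 in transiently amplifying-like and 0.01 in bottom enterocyte-like cells, with intervals that included 0, although over all cells its ratio was -0.15 (-0.26 to -0.04). Npm1 had 0.21 (0.03 to 0.40) in transiently amplifying-like cells and intervals that included 0 in the 4 other epithelial classes. Nap1l1 had 0.33 (-0.03 to 0.70) in transiently amplifying-like cells from 125 and 126 UMIs. In secretory-like cells Npm1 had 0.53 (0.04 to 1.03) from 61 and 83 UMIs and Eef2 had 0.28 (0.03 to 0.54), a class in which Ncl had -0.34 (-0.93 to 0.23). Npm1 was highest in immune-like cells among the 8 classes other than fibroblast-like, at 11.02 UMIs per 10000 (8.39 to 14.2) in WT and 10.5 (7.33 to 14.5) in ROBO cells, with intervals that overlapped those of stem cell-like cells.

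By count, 2 of 10 members were at least 25% higher in ROBO bottom enterocyte-like cells (Tpt1 and Eef1b2), where 16.5% of 1972 genes were. In transiently amplifying-like cells it was 2 of 10 (Tpt1 and Nap1l1), where 15.8% of 2204 genes were, and in stem cell-like cells 0 of 10, where 8.15% of 1878 were. In middle enterocyte-like cells it was 0 of 9, where 10.1% of 1681 genes were, and in top enterocyte-like cells 1 of 5 (Eef1b2, on 56 and 98 UMIs), where 16.5% of 407 genes were. None of the members with 100 or more UMIs was 20% lower in any of the 5 classes, where 10.5% of genes were in stem cell-like, 14.9% in transiently amplifying-like, 19.0% in bottom, 9.4% in middle and 7.37% in top enterocyte-like cells. These shares by class are near the background and do not set the members apart. Within the middle cluster led by Cubn and Gm2061, 2 of 9 members were 20% lower, where 8.6% of 1023 genes were. They were Npm1, at -0.46 (-0.96 to 0.03), and Ncl, at -0.34 (-0.88 to 0.19). Within the stem cell-like cluster led by Zfp692 and Erdr1 it was 1 of 9, Npm1 at -0.35 (-0.71 to 0.01), where 13.6% of 566 genes were. The median log2 ratio of the members other than Tpt1 was 0.07 in stem cell-like, 0.15 in transiently amplifying-like, 0.19 in bottom, -0.03 in middle and 0.07 in top enterocyte-like cells, beside medians of -0.02, 0.01, 0.00, 0.01 and 0.05 over all genes.

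The wider lists of initiation, elongation, termination, poly(A)-binding, nucleolar, nucleosome assembly, nascent chain and TOP genes, 74 genes outside the members, were described in the same way. Over all cells 68 of them had 100 or more UMIs, of which 2 were at least 25% higher and 6 at least 20% lower in ROBO cells, where 9.01% and 8.73% of all genes were, with a median log2 ratio of -0.03. The 2 higher were Eif4a2, a paralogue of Eif4a1, at 278 and 378 UMIs and a ratio of 0.59 (0.36 to 0.82), and Btf3, a subunit of the complex that binds chains leaving the ribosome, at 560 and 704 UMIs and 0.47 (0.31 to 0.64). The lowest were Eefsec, the selenocysteine elongation factor, at -0.54 (-0.95 to -0.14), and Pes1, a nucleolar factor of large subunit assembly, at -0.47 (-0.73 to -0.20).

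In bottom enterocyte-like cells 10 of 44 listed genes were at least 25% higher and 6 at least 20% lower in ROBO cells, where 16.5% of all genes were higher and 19.0% lower. Btf3 was at 1.79 and 4.10 UMIs per 10000 there, a 2.29-fold difference with a log2 interval of 0.82 to 1.58, and its partner Naca, named after its values were seen, at 8.37 and 12.03, a ratio of 0.52 (0.34 to 0.71). Naca lay at 0.00 (-0.17 to 0.17) in stem cell-like cells. In the opposite direction in bottom enterocyte-like cells, the initiation scaffold Eif4g1 was at 3.16 and 1.54, a ratio of -1.03 (-1.47 to -0.61). The hypusine-bearing factor Eif5a was at 7.64 and 5.18 there, a ratio of -0.56 (-0.81 to -0.32). Both were also named after their values were seen. The ribosomal protein genes were split, with 20 of 79 higher and 25 lower by these limits in this class and a summed ratio of -0.04. Of the 18 nucleolar and ribosome assembly factors, Npm1 and Ncl among them, 8 had 100 or more UMIs in this class, of which 1 was higher (Fbl, the nucleolar RNA methyltransferase, at 0.72) and 3 lower (Gar1, Nop10 and Nop58, at -0.49, -0.79 and -0.45) by the same limits, with a median of -0.016; these 4 were also named after their values were seen. Over all cells, where all 18 had 100 or more UMIs, 0 were higher and 3 lower, against 9.01% and 8.73% of all genes, with a median of -0.17.

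Finally, the genes whose levels were most like those of Tpt1 were sought among 2114 genes with 500 or more UMIs, over the 12 sums of class and genotype with at least 50 cells. The 5 highest Pearson correlations were with Rpl10a (0.950), Sptssa, a subunit of serine palmitoyltransferase (0.937), Rpl10 (0.920), Rpl19 (0.913) and Rps3a1 (0.912). Of the members, Eef1a1 ranked 26th at 0.855 and Eef1b2 34th at 0.848, and Eif4a1 was the least like Tpt1 of the members, at 0.700. These points share libraries, and the correlation describes the 12 sums only.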

How the data were processed

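Single-cell libraries of intestinal crypt isolates were made by the authors with the BioRad ddSEQ and the SureCell WTA 3′ kit, and the deposited values are raw UMI counts per gene and cell, 1 matrix per genotype. Per the labels the builds were mm10 and GRCm38, and the aligner, annotation and cell calling are not given in the sources used here. The 8 samples of a genotype could not be told apart in its matrix, which names cells by genotype and number and gives no barcodes.

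All deposited cells were used. Genes in at least 3 cells were normalized, S and G2M scores were regressed out and cells were clustered with Seurat 5.3.0 in R 4.3.3 (2000 variable genes, 20 principal components, resolution 0.8). A cluster was named where at least 3 markers were 1.5-fold higher (0.1 added) and detected in 10% of its cells, by the class with the most, and at least 2, markers among its 10 leading genes; this rule was chosen with the clusters in view. The 2 stem cell-like clusters had leading genes Zfp692 and Erdr1 and, in the other, Lgr5 and BC064078, the amplifying clusters Sfrp5 and X2810417H13Rik, and Kif23 and Mcm5. The cluster led by Zfp692 and Erdr1 had 2 stem markers among its 10 leading genes, and Lgr5 was not 1 of them. Scrublet (scanpy 1.11.5) called 5 cells as doublets, which were kept.

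UMIs were summed per class and genotype. Levels carry exact Poisson and ratios conditional exact 95% intervals (scipy 1.17.1). The ratio intervals were tried on sums over all cells simulated with Poisson counts, the model they assume. That trial checks the calculation and does not cover spread between cells or mice. With 1 pooled sample per genotype no test across samples was made, and called means 25% higher or 20% lower (ROBO over WT) or 1.5-fold higher (stem over top) among genes with 100 or more UMIs. Named genes were the 10 members, in the lists the 2 largest and 2 smallest ratios over all cells, the 5 genes most like Tpt1 (0.1 added before log2), and the 2 leading genes of a cluster; Naca, Eif4g1, Eif5a, Fbl, Gar1, Nop10 and Nop58 were named after their values were seen. Reg3g and Reg3b were named as further leading genes of an unnamed cluster after its Tpt1 ratio was seen. Members and lists were chosen with earlier results of these data known. Some 5′ UTR stretches are not reported here.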

Additional observations from a re-analysis of the deposited data

How the results depend on the processing

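The directions of the crypt-to-villus median in both genotypes and of the Tpt1 ratio in the 5 classes held under the alternatives run, while counts of members and some sizes moved. Among middle enterocyte-like cells below the median depth of their class, which was not one of these alternatives, the Tpt1 ratio was -0.034 (-0.31 to 0.24). The log2 ratio of Tpt1 ranged from 0.70 to 1.03 in bottom enterocyte-like cells and from 0.091 to 0.58 in transiently amplifying-like cells. It was 0.70 and 0.091 in these 2 classes at resolution 0.4, 0.77 in bottom enterocyte-like cells when only cells with at least 1000 UMIs were clustered, and in transiently amplifying-like cells 0.58 with no regression of phase scores and 0.55 without the doublets. Each of these settings redrew the classes.

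The number of members at least 25% higher in ROBO transiently amplifying-like cells, 2 as reported, was 0 at resolutions 0.4 and 1.2, with the translation and ribosomal protein genes left out of clustering, with equal weight per cell and at a fold of 1.5. It was 1 with no phase regression, with scaling outside ribosomal protein genes and members, with scaling by the median gene ratio, and without the 5 highest cells. In bottom enterocyte-like cells, 2 as reported, it was 1 with cells of at least 1000 UMIs, without the 5 highest cells and at a fold of 1.5, and 4 without doublets and with equal weight per cell. In stem cell-like cells, 0 as reported, it was 2 without doublets and with equal weight. In top enterocyte-like cells, 1 as reported, it was 0 with no phase regression, at a minimum of 200 UMIs and at a fold of 1.5, and 2 without the 5 highest cells.

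The median log2 stem over top ratio of the members was 1.64 in WT and 1.77 in ROBO with scaling by the median gene ratio, 1.88 and 1.89 between the outer bins of the villus score, and 1.13 and 1.27 against middle enterocyte-like cells. It was 2.70 in ROBO among cells at or above the median UMIs of their class, an alternative added after seeing the data. Nap1l1 in transiently amplifying-like cells went from 0.33 to -0.028 at resolution 0.4. The cause of these changes was not tested.

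No paired analysis was possible because cells cannot be assigned to the numbered samples, and for the same reason no replicate was left out. Adding pseudogene rows was not run, since 0 rows carry such names. Members with few UMIs in a class, Nap1l1 and in top enterocyte-like cells Eef1g, Eif4a1, Npm1 and Ncl, had intervals wider than the limits for a call.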
